A study of Eucalyptus camaldulensis with 12 samples.

Results

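The watered control seedlings of Eucalyptus camaldulensis (river red gum) were sampled on a pair of occasions, and the transcripts whose abundance differed between these samplings are described here. C1 is leaf RNA of watered seedlings taken in October at the end of the experiment, and C0 is leaf RNA of the same seedlings taken in August. Each group holds 3 libraries, 1 for each of the populations Katherine (dry tropics), Mt Isa (semi-arid tropics) and Petford (humid tropics), so that 6 of the 12 libraries of the series enter the main comparison. The other 6 libraries, S1 and S0, come from seedlings held at 30% of field capacity until October and from the same seedlings in August, before any water deficit. All seedlings were raised from seed sown in pots in a glasshouse kept between 15 and 30 °C from April. Each C1 or C0 library is a bulk of 5 seedlings and each S1 or S0 library a bulk of 10, with 2 leaves from each seedling, picked before noon. The populations served as the replicates, so the spread between libraries of a group includes differences between populations. October and August seedlings differed in age, season and sampling day at once, and these cannot be told apart.

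The members were the predicted transcripts of the deposited count table that held at least 10 reads over the 6 C1 and C0 libraries. Of 43425 rows, 245 were identical to another row, and 1633 of the 43180 distinct transcripts shared scaffold and start with another and were left out. Of the remaining 41547 transcripts, 6930 fell under 10 reads and 34617 were tested. Counts over the transcripts kept summed to 1679845 to 2845874 per C1 library, against 1817461 to 3131368 per C0 library. The label of the Mt Isa C1 library is inconsistent: its title and sample group place it in the October controls, whereas its source name calls it a leaf taken before the stress treatment. Likewise, the source name of the Mt Isa S0 library calls it a control. Both were kept as their titles and sample groups state. The laccase Eucgr.F04160, described below, had 878 CPM in the Mt Isa C1 library, against 559 and 563 CPM in the other C1 libraries, and 104 CPM in the Mt Isa S0 library, against 83.6 and 77.6 CPM in the other S0 libraries (scaled over 12 libraries). For this gene each library stood with the group of its title. The gene was named for its large difference of changes, which was fitted with these labels, so it cannot check them. For several genes whose Mt Isa C1 level lay far from the other C1 levels, the value without the Mt Isa pair is given beside the result.

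A young eucalypt leaf builds its photosynthetic machinery from nuclear genes for the light-harvesting antenna, the photosystems and the carbon-fixing enzymes, which are among the most abundant mRNAs of any green leaf. Eucalypt leaves are also known for carbon-rich secondary compounds. The shikimate pathway makes phenylalanine, phenylalanine ammonia-lyase turns it into phenylpropanoids, and the flavonoid enzymes carry part of these on to flavonols, anthocyanins and condensed tannins, while terpene synthases make the terpenes of eucalyptus oil. Other leaf genes serve growth itself, namely cell division and the loosening and building of the cell wall.

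In total, 3987 transcripts (11.5%) differed between C1 and C0 at an adjusted p under 0.01 in edgeR's quasi-likelihood test with population as a term. Of these, 1751 (5.06%) were higher and 2236 (6.46%) were lower in C1. The change was at least 2-fold for 1392 of the higher and 1702 of the lower transcripts, and at least 4-fold for 575 of the higher and 371 of the lower ones. All 3 populations changed in the fitted direction for 3928 of the 3987 calls (98.5%), against 44.7% of all transcripts tested that changed the same way in all 3. Without population as a term, which ignores that the same seedlings were sampled in both months, 779 transcripts were called higher and 1344 lower. Without the Katherine pair the counts were 490 higher and 779 lower, without the Mt Isa pair 1166 and 1624, and without the Petford pair 1695 and 2458. The spread was pooled wholly over transcripts in the fits without Mt Isa or Petford, but only in part without Katherine. These counts, and calls lost without a pair, therefore do not reflect the population left out alone. The same tests gave an unadjusted p under 0.05 for 6231, 6728 and 8245 transcripts. For the background between seedlings, C0 was compared with S0, which are different seedlings of the same populations in the same month: 37 of 34461 transcripts (0.107%) were called, 3 (0.00871%) higher and 34 (0.0987%) lower in C0.

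The balance between higher and lower depended on the scaling. With library totals alone, 3610 transcripts were called higher and 1596 lower (69.3% of calls higher, against 43.9% with TMM factors), and the median log2 fold change of all transcripts tested was 0.35 instead of 0.05. Of a library's counts, the 10 most abundant transcripts held 2.90%, 3.21% and 4.41% in C1, against 9.55%, 9.11% and 9.98% in C0 (Katherine, Mt Isa and Petford, the order used throughout). These 10 were ranked over the 6 libraries together and several owe their place to their C0 level, so the shares are a description, with no test. Throughout, CPM denotes edgeR's cpm value, the count scaled by the TMM-adjusted library total, ± after a log2 fold change is its standard error, and "rose" and "fell" are used only of transcripts with an adjusted p under 0.01.

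**Figure D1:**
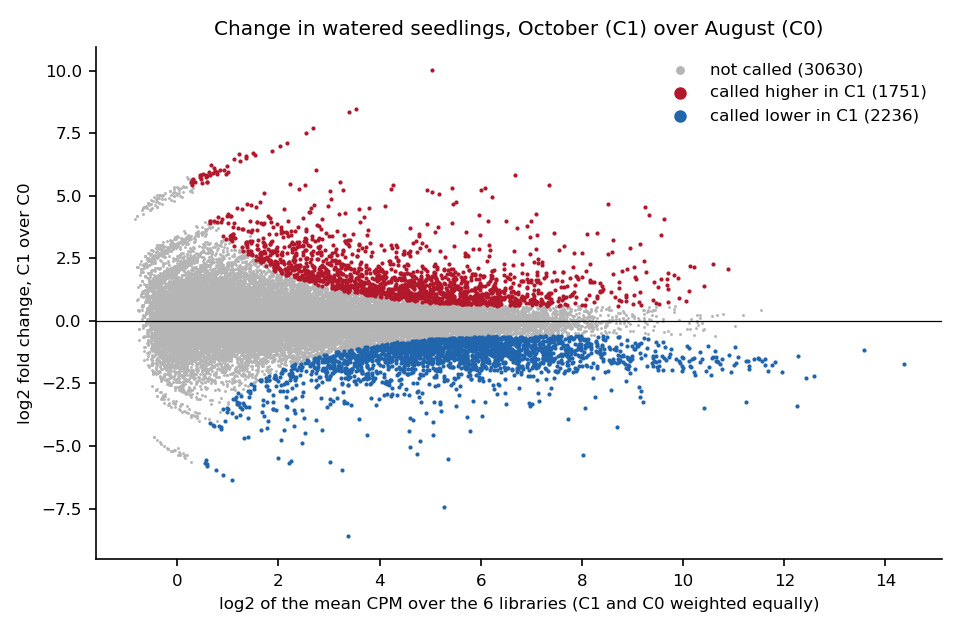
Log2 fold change of C1 over C0 (vertical axis) against the log2 of the mean CPM (horizontal axis) for the 34617 transcripts tested, with 1751 called higher in red, 2236 called lower in blue and the others in grey. The blue points extend to the right end, where the most abundant transcripts lie, whereas the red points reach the largest fold changes.

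Abundance and direction went together, as the plot of change against level shows. Among the 88 transcripts above a mean of 1000 CPM, 59 fell and 7 rose, with a median log2 fold change of -1.48. Between 100 and 1000 CPM, 499 of 1710 transcripts fell and 224 rose. Between 10 and 100 CPM the counts were 1391 and 989 of 10899, and between 1 and 10 CPM 287 and 531 of 18532, so that rises outnumbered falls only among the transcripts of lower abundance. None of the 3388 transcripts under 1 CPM was called in either direction, and changes of such transcripts were not detectable at this depth.

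Of the 10 most abundant transcripts over the 6 libraries, all 10 were called lower, which follows in part from that ranking. By their mean in C1 alone, HSP70 (3418 CPM, not called) and LP1 (3121 CPM, higher in C1), described below, stood above 8 of the 10. The most abundant of all was a small subunit of Rubisco, RBCS1A (Eucgr.J01502, scaffold 10:19441651-19443594), at 6945, 8664 and 14956 CPM in C1, against 30880.0, 26714 and 37886 CPM in C0 (log2 fold change -1.71 ± 0.23, adjusted p = 3.81e-08). It is the enzyme subunit that, with the chloroplast-encoded large subunit, fixes carbon dioxide. Every C1 library lay well below every C0 library, and Petford stood highest of the October libraries. LHB1B1 (Eucgr.E02381, scaffold 5:36145832-36147094), a chlorophyll-binding protein of the photosystem II antenna, had 6932, 6564 and 9203 CPM in C1, against 17410.4, 16173 and 16870.5 CPM in C0 (log2 fold change -1.17 ± 0.21, adjusted p = 2.56e-05). Rubisco activase, RCA (Eucgr.J02030, scaffold 10:26375692-26379838), which frees Rubisco of inhibitory sugar phosphates, had 1489, 2159 and 3292 CPM in C1, against 9997, 10584 and 9615 CPM in C0 (log2 fold change -2.20 ± 0.22, adjusted p = 2.38e-11). AtGLDP2 (Eucgr.C03047, scaffold 3:57434014-57440904), the P protein of glycine decarboxylase in photorespiration, had 1211, 1604 and 2629.5 CPM in C1, against 5056, 6020.2 and 5125 CPM in C0 (log2 fold change -1.65 ± 0.21, adjusted p = 1.45e-08). The groups did not overlap for any of these. Over all transcripts, 27.2% had ranges in C1 and C0 that did not overlap (13.8% with C1 higher and 13.4% with C1 lower). Without the Katherine pair, RBCS1A, LHB1B1 and AtGLDP2 kept their direction but missed the threshold, as did LHB1B1 without the Mt Isa pair.

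The other 6 of these 10 transcripts carry no gene name in the sources used here. The transcript at scaffold 9:27872807-27876951 changed most, with 597, 808 and 1228 CPM in C1, against 8899, 9583 and 8199 CPM in C0 (log2 fold change -3.40 ± 0.23, adjusted p = 2.54e-17). The transcript at scaffold 4:5282319-5290880 had 2091, 1888 and 1729.6 CPM in C1, against 9496, 8441 and 9678 CPM in C0, and it overlaps a LHB1B1 transcript described below, so reads may be counted for both. The remaining 4, at scaffold 9:23890242-23893312, 1:16273574-16275998, 9:21209595-21211837 and 7:31810443-31813249, had log2 fold changes of -1.41, -2.06, -1.76 and -2.00. The transcript at scaffold 9:23890242-23893312 lost its call without the Katherine pair. Coordinates are those of the deposited table, on the E. grandis draft scaffolds to which the study mapped its reads.

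A gene identifier from the study could be placed on 2173 of the tested transcripts, and the gene groups below were drawn from those with a product name. A pair of sources gave these identifiers, and they differ in what they favour. A table of genes that the study selected for a difference between C1 and S1 named 1510 transcripts, of which 571 (37.8%) rose and 198 (13.1%) fell here. Since that selection used the same C1 libraries, the direction of its members is not independent evidence. A table of genes that hold single nucleotide polymorphisms named 663, of which 53 (7.99%) rose and 180 (27.1%) fell, and the remaining 32444 transcripts without an identifier had 1127 rises and 1858 falls. Counts are given for both sources together and, where it matters, for the polymorphism table alone. Within the groups, the member with the most reads and the member with the largest change were named by rule, and further members were chosen after their values were seen.

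**Figure D2:**
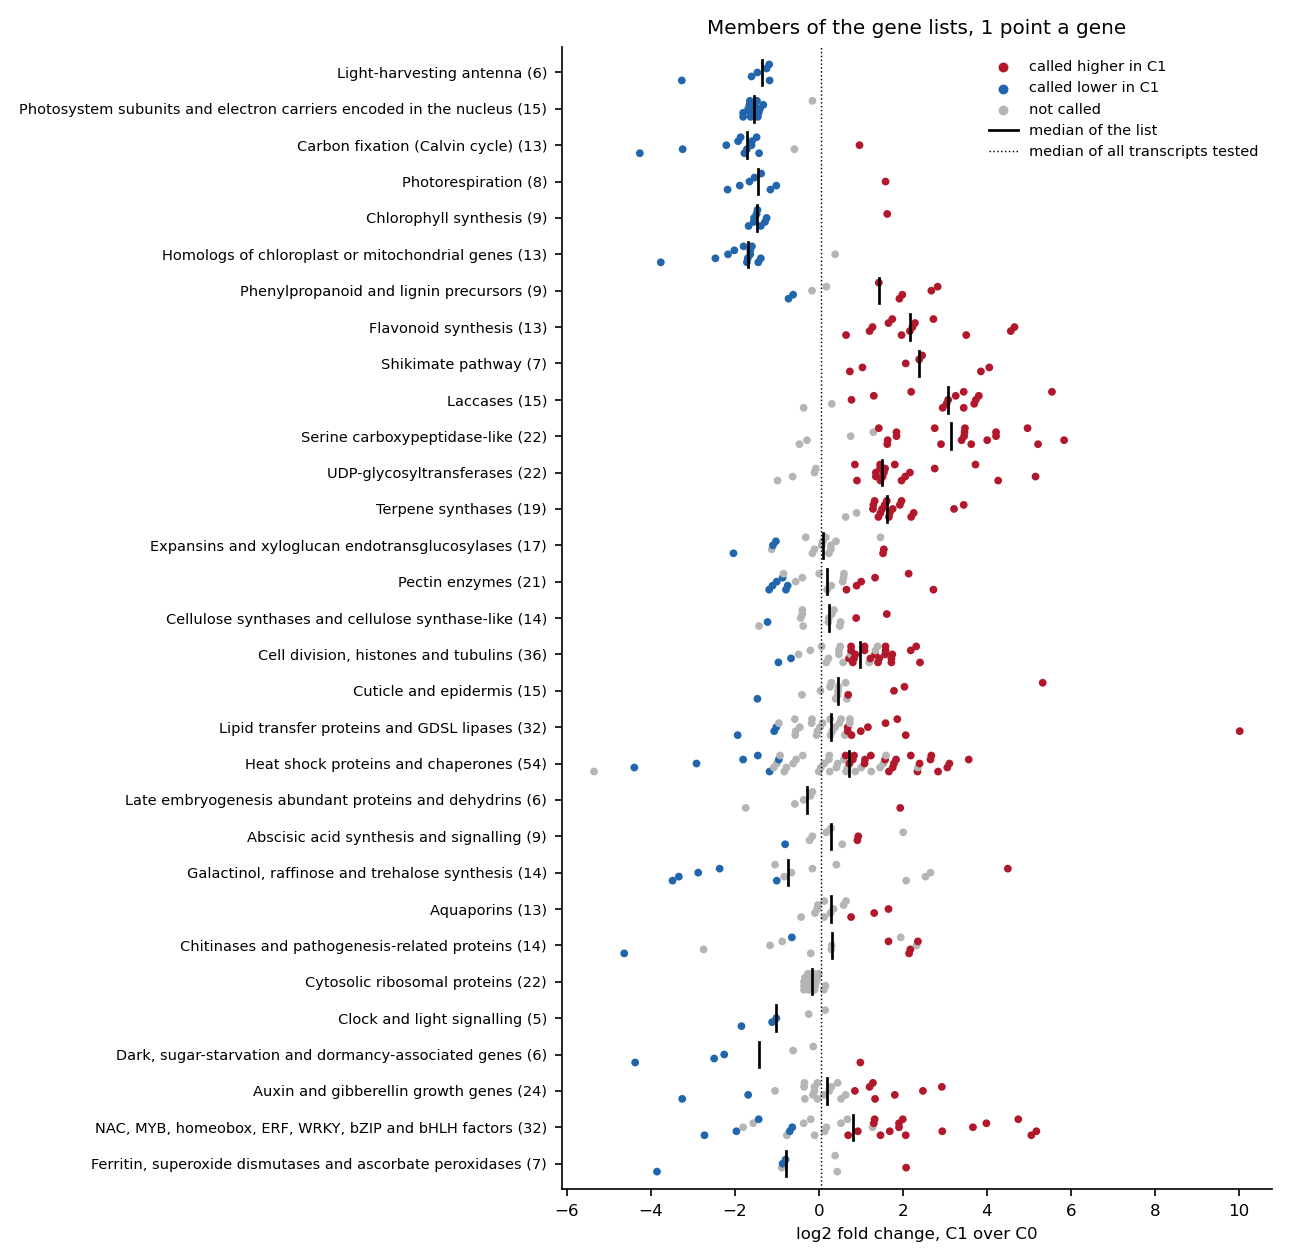
Log2 fold change of C1 over C0 for every tested member of the 31 gene lists, 1 point a gene, red where called higher, blue where called lower and grey where not called, with the list's median as a black bar and the median of all transcripts tested (0.05) as a dotted line. The photosynthesis lists lie to the left of the line and the shikimate, flavonoid, laccase, carboxypeptidase-like, glycosyltransferase and terpene synthase lists to its right.

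Photosynthesis genes fell in all their divisions. All 6 light-harvesting antenna genes fell (median log2 fold change -1.35, against 0.05 over all transcripts), as did 14 of 15 nuclear genes for photosystem subunits and electron carriers (median -1.53), 11 of 13 for carbon fixation (median -1.71), 7 of 8 for photorespiration (median -1.45) and 8 of 9 for chlorophyll synthesis (median -1.46). The background was 6.46% of all transcripts called lower, and 27.1% of those named from the polymorphism table. Most of these genes were named from the polymorphism table, in which 5 of 5 antenna, 14 of 14 photosystem, 8 of 9 carbon fixation, 7 of 7 photorespiration and 8 of 8 chlorophyll synthesis genes fell. The antenna genes took 1.24%, 1.14% and 1.41% in C1, against 2.80%, 2.49% and 2.80% in C0 of all counts (exact permutation p = 0.10, two-sided, the smallest possible). Without the Katherine pair, 3 of the 6 antenna genes and 9 of the 13 carbon fixation genes were called lower.

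Within the antenna, a transcript of a further LHB1B1 gene (Eucgr.D00321, scaffold 4:5281980-5286647) changed most, with 468, 426 and 474 CPM in C1, against 4088, 3893 and 5182 CPM in C0 (log2 fold change -3.26 ± 0.21, adjusted p = 2.41e-18). It lies within the neighbourhood of the abundant unnamed transcript above and overlaps it. The chlorophyll-binding protein CP29 (Eucgr.K02983) and the photosystem I antenna genes LHCA1 (Eucgr.J01096) and LHCA4 (Eucgr.B00523) had log2 fold changes of -1.60, -1.46 and -1.18. The photosystem genes varied little among themselves. PSBP-1 (Eucgr.A02039) of the oxygen-evolving complex had 1180.5, 1135 and 1279 CPM in C1, against 3920.3, 3605 and 3493 CPM in C0 (log2 fold change -1.62 ± 0.19, adjusted p = 2.34e-09). PSBQ (Eucgr.D00854), of the same complex, had 497, 431 and 584 CPM in C1, against 1875, 1643 and 1717 CPM in C0 (log2 fold change -1.80 ± 0.19, adjusted p = 5.21e-11). Apart from PSBR (Eucgr.F01447), at a log2 fold change of -0.15 and not called, the nuclear photosystem genes lay between -1.80 and -1.32, and their ranges in C1 and C0 did not overlap.

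Carbon fixation showed a wider range. A gene of the Rubisco small subunit family (Eucgr.B03013) had 29.0, 8.46 and 127 CPM in C1, against 691, 421 and 1216 CPM in C0 (log2 fold change -4.26 ± 0.25, adjusted p = 1.16e-19), with Petford highest and Mt Isa lowest in both months. Phosphoribulokinase, PRK (Eucgr.E01261), which remakes the carbon dioxide acceptor, fell by 1.86 on the log2 scale, and GAPB (Eucgr.F01793), a chloroplast glyceraldehyde-3-phosphate dehydrogenase subunit, by 1.48. The exception was a putative fructose-bisphosphate aldolase (Eucgr.A01538), which rose, with 417, 584 and 611 CPM in C1, against 296, 277 and 239 CPM in C0 (log2 fold change 0.97 ± 0.18, adjusted p = 3.71e-05). Aldolases occur in the chloroplast and in the cytosol, and the product name does not say which this is. In photorespiration, a peroxisomal hydroxy-acid oxidase (Eucgr.F01413), the type of enzyme that oxidises glycolate, had 371, 393 and 573 CPM in C1, against 2089, 2085 and 1734 CPM in C0 (log2 fold change -2.17 ± 0.20, adjusted p = 1.24e-12), and catalase CAT2 (Eucgr.F01776) fell by 1.01. A glycine decarboxylase gene, AtGLDP1 (Eucgr.C00646), went the other way, at 153, 178 and 177 CPM in C1, against 61.0, 50.2 and 57.6 CPM in C0 (log2 fold change 1.59 ± 0.18, adjusted p = 4.67e-10), although AtGLDP2 above fell.

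In chlorophyll synthesis, GUN5 (Eucgr.A02348), the subunit of magnesium chelatase that binds the porphyrin, had 1159, 1428 and 1913 CPM in C1, against 3709.6, 4434 and 4732 CPM in C0 (log2 fold change -1.54 ± 0.20, adjusted p = 1.09e-08). The protochlorophyllide reductase PORA (Eucgr.F01098) had 212, 220.1 and 159 CPM in C1, against 691, 472 and 732 CPM in C0 (log2 fold change -1.67 ± 0.19, adjusted p = 5.72e-10). The chelatase subunits CHLI2 (Eucgr.D00551) and CHLD (Eucgr.J00729) fell by 1.55 and 1.28. A pair of geranylgeranyl reductase genes, which make the phytyl tail, went apart: Eucgr.B00512 fell by 1.46, whereas GGR (Eucgr.F00752) rose, with 194, 198 and 186 CPM in C1, against 60.4, 56.4 and 70.9 CPM in C0 (log2 fold change 1.63 ± 0.18, adjusted p = 1.91e-10). Homologs of chloroplast and mitochondrial genes, as far as they were placed on the scaffolds of the draft genome, fell in 12 of 13 cases (median -1.69). Of these, PSBB (CUFF.12423), the CP47 core antenna of photosystem II, had 3.54, 8.46 and 3.69 CPM in C1, against 24.1, 36.7 and 23.0 CPM in C0 (log2 fold change -2.46 ± 0.30, adjusted p = 4.3e-09), whereas RBCL (Eucgr.B03944), the large subunit of Rubisco, was not called (0.39 ± 0.20). These identifiers all came from the C1 and S1 selection, in which 13.1% of all transcripts fell, and 6 of the 13 were called lower without population as a term. August libraries also differed among themselves. PSBB had 187, 13.1 and 324 CPM in S0 (scaled over 12 libraries), and its log2 fold change of C0 over S0 was -2.15 (adjusted p = 0.0149). Katherine was the lowest October library for 12 of the 13.

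**Figure D3:**
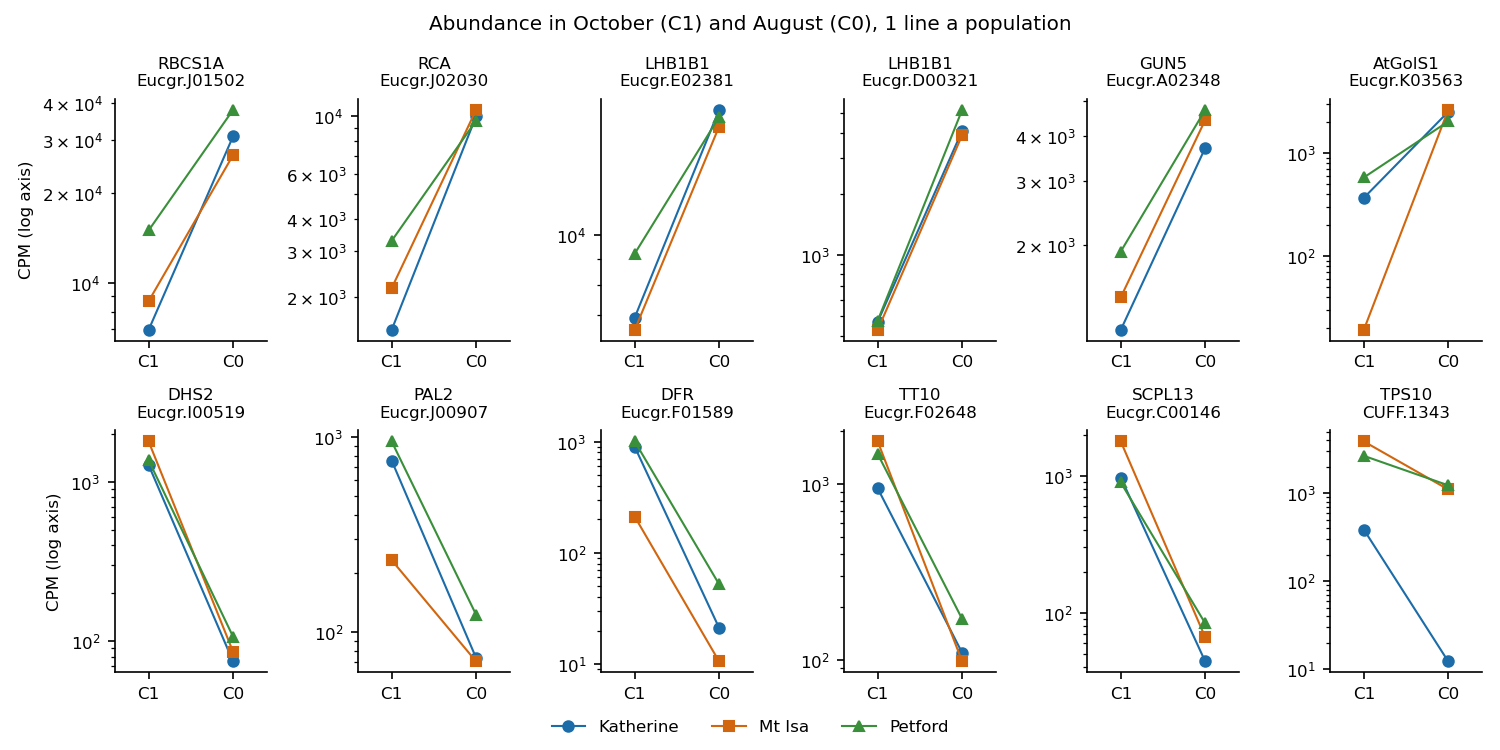
CPM (vertical log axis) of 12 genes in C1 (left) and C0 (right) in each panel, 1 line for each population. The photosynthesis genes and AtGolS1 in the upper row lie lower in C1 in every population, and the secondary metabolism genes in the lower row lie higher, with Mt Isa low in C1 for PAL2, DFR and AtGolS1 and Katherine low in both months for TPS10.

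The shikimate pathway, which feeds the aromatic amino acids, rose throughout: 7 of 7 tested genes were called higher (median log2 fold change 2.39, against a background of 5.06% of transcripts called higher). Of the 7, 6 were named from the C1 and S1 selection, in which 37.8% of all transcripts rose. The entry enzyme DHS2 (Eucgr.I00519, scaffold 9:10869662-10872735), a DAHP synthase, had 1278, 1798 and 1369 CPM in C1, against 74.5, 85.8 and 107 CPM in C0 (log2 fold change 4.06 ± 0.21, adjusted p = 2.5e-21). Its homolog DHS1 (Eucgr.H04748) had 725, 1302 and 1142 CPM in C1, against 550.4, 669 and 625 CPM in C0 (log2 fold change 0.74 ± 0.18, adjusted p = 0.00178), and it lost its call without population as a term and without the Katherine or the Mt Isa pair, each of which left 6 of the 7 called. A dehydroquinate dehydratase named EMB3004 in Arabidopsis was represented by the neighbours Eucgr.H04427 and Eucgr.H04428, with log2 fold changes of 2.07 and 2.39. Shikimate kinase SK1 (Eucgr.F02664) had 77.5, 14.8 and 80.5 CPM in C1, against 2.35, 3.27 and 4.24 CPM in C0, and prephenate dehydratase PD1 (Eucgr.B03894), on the branch to phenylalanine, a log2 fold change of 2.46. A putative 3-dehydroquinate synthase (Eucgr.J02467) was the member named from the polymorphism table, and it rose by 1.04.

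Of 9 phenylpropanoid and lignin precursor genes, 5 rose, 2 fell and 2 were not called. The C1 and S1 selection, in which 37.8% of all transcripts rose and 13.1% fell, named 5 of them, with 3 rises and 2 falls. The polymorphism table, in which 7.99% rose, named 4, with 2 rises. PAL2 (Eucgr.J00907, scaffold 10:9845213-9849501), which takes phenylalanine into the pathway, had 756, 234 and 947 CPM in C1, against 73.9, 70.9 and 123 CPM in C0 (log2 fold change 2.68 ± 0.21, adjusted p = 1.28e-14). Cinnamate 4-hydroxylase, ATC4H (Eucgr.J01844), the next enzyme, had 839, 317 and 1007 CPM in C1, against 146.1, 145 and 205 CPM in C0 (log2 fold change 1.99 ± 0.20, adjusted p = 3.29e-11). The lowest October value of both genes was that of Mt Isa, which nevertheless lay above every August value, and without the Mt Isa pair the log2 fold changes were 3.13 and 2.40. The caffeoyl-CoA O-methyltransferase genes Eucgr.H04646 and Eucgr.H04648 rose by 2.83 and 1.92. The hydroxycinnamoyl transferase genes HCT (Eucgr.F03973 and Eucgr.F03974) were the ones that fell, by 0.72 and 0.61, and neither was called lower without population as a term, in DESeq2, with library totals alone or without the Katherine or the Mt Isa pair. The coumaroyl ester hydroxylase CYP98A3 (Eucgr.A02190) and the O-methyltransferase ATOMT1 (Eucgr.A01397) were not called (0.18 ± 0.18 and -0.16 ± 0.18).

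All 13 flavonoid genes rose (median 2.17). Of these, 12 were named from the C1 and S1 selection, in which 37.8% of all transcripts rose. Chalcone synthase CHS (Eucgr.H00087), the entry enzyme, was the most abundant, with 1094, 1266 and 1169 CPM in C1, against 411, 474 and 574 CPM in C0 (log2 fold change 1.28 ± 0.18, adjusted p = 1.58e-07). A further CHS gene (Eucgr.H02828) had 1601, 359 and 1540.1 CPM in C1, against 29.3, 21.4 and 95.1 CPM in C0. Flavanone 3-hydroxylase, F3H (Eucgr.J02430), had 674, 231 and 846 CPM in C1, against 36.4, 34.5 and 69.7 CPM in C0. For both of these, Mt Isa lay below the other October libraries and above every August library, and without the Mt Isa pair their log2 fold changes were 4.80 and 3.88. Dihydroflavonol 4-reductase, DFR (Eucgr.F01589, scaffold 6:20214048-20216788), which commits flavonoids to anthocyanins and condensed tannins, changed most, with 902, 212 and 1007 CPM in C1, against 21.1, 10.5 and 52.1 CPM in C0 (log2 fold change 4.66 ± 0.23, adjusted p = 7.54e-22; 4.77 without the Mt Isa pair). The leucoanthocyanidin dioxygenase LDOX (Eucgr.D01945) and TT12 (Eucgr.A02048), a transporter of tannin precursors into the vacuole in Arabidopsis, rose by 1.97 and 2.29, and the flavonol synthase FLS1 (Eucgr.L00738) by 0.65. Mt Isa was the lowest October library for 8 of the 13 flavonoid genes, compared with 36.0% of all transcripts. Without the Mt Isa pair 11 of the 13 were called, as without the Katherine pair. The flavonoid 3'-hydroxylase TT7 (Eucgr.B00582), the member named from the polymorphism table, had 75.7, 57.7 and 76.1 CPM in C1, against 20.5, 24.4 and 19.997 CPM in C0 (log2 fold change 1.66 ± 0.21, adjusted p = 6.29e-09).

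Laccases, copper oxidases that couple phenolics in cell walls and seed coats, rose in 13 of 15 cases (median 3.08). TT10 (Eucgr.F02648), the laccase that browns tannins in the Arabidopsis seed coat, had 944, 1745 and 1479.7 CPM in C1, against 110.3, 98.5 and 171 CPM in C0 (log2 fold change 3.45 ± 0.21, adjusted p = 6.72e-19). A LAC14 homolog on scaffold 8 (Eucgr.H02579) changed most among those at 20 CPM or more, with 122, 370.3 and 179.7 CPM in C1, against 6.45, 14.2 and 28.5 CPM in C0 (log2 fold change 3.81 ± 0.25, adjusted p = 6.15e-18), with Mt Isa highest in October and Petford in August. The laccases not called were LAC5 (Eucgr.G03098, -0.36 ± 0.35) and IRX12 (Eucgr.K02996, 0.31 ± 0.23), which is one of the lignin laccases of Arabidopsis xylem. Of the 13, 10 lie in a pair of clusters on scaffold 6, and reads of such near-identical copies may be split or shared, so the copies are uncertain individually.

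Serine carboxypeptidase-like genes, a family that includes acyltransferases of phenolic esters, rose in 18 of 22 cases (median 3.15), and none fell. SCPL13 (Eucgr.C00146, scaffold 3:4084845-4089580) had 974, 1791 and 897 CPM in C1, against 44.0, 66.2 and 83.6 CPM in C0 (log2 fold change 4.22 ± 0.23, adjusted p = 6.1e-21). Scpl6 (Eucgr.L01608) had 329, 50.8 and 227 CPM in C1, against 1.76, 1.09 and 7.27 CPM in C0 (log2 fold change 5.84 ± 0.29, adjusted p = 1.37e-21), and scpl18 (Eucgr.I01041) had 149, 46.02 and 182 CPM in C1, against 0.587, 2.18 and 6.67 CPM in C0 (log2 fold change 5.22 ± 0.30, adjusted p = 6.19e-20). Both had their lowest October value in Mt Isa and their highest August value in Petford, and their log2 fold changes without the Mt Isa pair were 5.90 and 5.53. In the list, 2 members are named serine carboxypeptidase S28 family proteins (Eucgr.J00402 and Eucgr.J00406), a different family of peptidases, and they rose by 4.22 and 3.47. UDP-glycosyltransferases, which attach sugars to phenolics, hormones and other small molecules, rose in 18 of 22 cases (median 1.49). UGT84A1 (Eucgr.G01342, scaffold 7:22569314-22571149), a glucosyltransferase of hydroxycinnamic acids in Arabidopsis, had 1788, 2281 and 1743 CPM in C1, against 368, 447 and 469 CPM in C0 (log2 fold change 2.17 ± 0.19, adjusted p = 3.26e-13). Eucgr.L02741 had 104, 17.99 and 69.4 CPM in C1, against 1.17, 1.09 and 2.42 CPM in C0 (log2 fold change 5.16 ± 0.35, adjusted p = 2.01e-17), and the flavonoid glucosyltransferase UGT78D2 (Eucgr.C01021) had 429, 60.3 and 296 CPM in C1, against 4.11, 9.45 and 18.8 CPM in C0. Nearly all laccase, carboxypeptidase-like and glycosyltransferase genes were named from the C1 and S1 selection, in which 37.8% of all transcripts rose.

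Terpene synthases were called higher in 17 of 19 cases (median 1.62). All 19 were named from the C1 and S1 selection, in which 37.8% of all transcripts rose. For 6 of the 19 the ranges in C1 and C0 did not overlap, all with C1 higher, against 13.8% of all transcripts. Without population as a term 3 of the 19 were called, and in DESeq2 10. The TPS10 transcript CUFF.1343 (scaffold 1:17290163-17293925) had 387, 3876 and 2658 CPM in C1, against 12.3, 1103 and 1229 CPM in C0 (log2 fold change 2.26 ± 0.30, adjusted p = 2.58e-08). Its level in Katherine was far below the others in both months, and each population was higher in October than in August. Its call was lost without population as a term, in DESeq2 and in the quasi-likelihood method of edgeR 4. The TPS21 genes Eucgr.E03115 and Eucgr.L03307 rose by 3.22 and 3.45. Terpene synthases form large families of similar copies in eucalypts, so individual copies are uncertain.

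**Figure D4:**
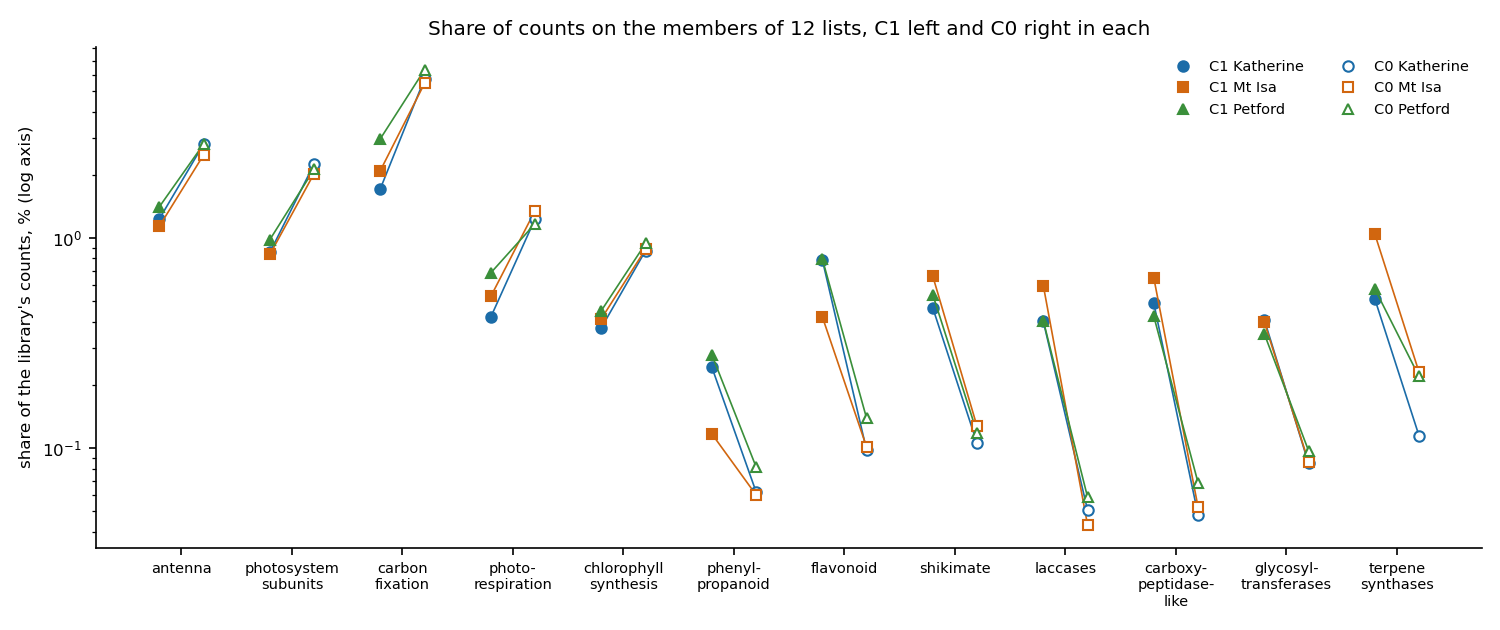
Percent of a library's counts (vertical log axis) that fell on the members of 12 gene lists, with filled symbols for C1 at the left and open symbols for C0 at the right of each list and a line for each population. The 5 photosynthesis lists took a smaller share in every C1 library than in any C0 library, and the 7 lists of phenolic and terpene metabolism a larger one.

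Expressed as a share of counts, the carbon fixation genes took 1.72%, 2.10% and 2.97% in C1, against 5.74%, 5.46% and 6.33% in C0. The flavonoid genes took 0.787%, 0.422% and 0.796% in C1, against 0.0980%, 0.101% and 0.139% in C0, and the laccases 0.401%, 0.594% and 0.404% in C1, against 0.0508%, 0.0431% and 0.0585% in C0. In the plot of these shares the groups do not overlap for any of the 12 lists, the terpene synthases included. In leaf bulks, fewer cells of a type and less RNA per cell cannot be told apart.

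Genes for growth changed less uniformly. Among 36 genes for cell division, histones and tubulins, 21 rose and 2 fell (median 0.98). Of these, 20 rises were among the 32 members named from the C1 and S1 selection, in which 37.8% of all transcripts rose. However, of the 36, 2 were called higher without population as a term, 5 without the Katherine pair, 11 without the Mt Isa pair and 10 in DESeq2. Cyclin CYCD6;1 (Eucgr.A01768) had 53.8, 38.6 and 16.8 CPM in C1, against 14.1, 1.82 and 9.70 CPM in C0 (log2 fold change 2.19 ± 0.32, adjusted p = 3.08e-07), with Petford lowest in October, and lost its call without population as a term, in DESeq2 and without the Katherine pair. Cyclin B1;4 (Eucgr.K01668), a mitotic cyclin, had 37.2, 49.2 and 14.8 CPM in C1, against 14.1, 7.63 and 8.48 CPM in C0 (log2 fold change 1.73 ± 0.28, adjusted p = 3.21e-06). Petford was the lowest October library for 27 of the 36, compared with 32.5% of all transcripts. The most abundant member, the tubulin TUA2 (Eucgr.G01186), had 1208, 1081 and 988 CPM in C1, against 891, 589.7 and 733 CPM in C0 and was not called (log2 fold change 0.58 ± 0.18, adjusted p = 0.018). Cell division genes are usually highest in the youngest leaves, and whether leaves of the same stage were picked in both months is not given in the sources used here.

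Cell wall genes gave a mixed picture. Most of them were named from the C1 and S1 selection, in which 37.8% of all transcripts rose and 13.1% fell. Of 17 expansins and xyloglucan endotransglucosylases, which loosen and rejoin the wall, 2 rose and 3 fell. XTH9 (Eucgr.K00883) had 822, 529 and 544 CPM in C1, against 319.8, 161 and 181 CPM in C0 (log2 fold change 1.55 ± 0.18, adjusted p = 7.63e-10). XTH7 (Eucgr.I00659) had 115, 51.8 and 334 CPM in C1, against 523, 599 and 491 CPM in C0 (log2 fold change -2.03 ± 0.26, adjusted p = 1.23e-08), and lost its call without population as a term, in DESeq2 and without the Katherine pair. Of 21 pectin genes 6 rose and 6 fell, with RHM1 (Eucgr.K01196), which makes the rhamnose of pectin and of flavonoid glycosides, at 557, 138 and 517 CPM in C1, against 47.5, 40.4 and 72.1 CPM in C0 (log2 fold change 2.73 ± 0.22, adjusted p = 9.82e-15). Of 14 cellulose synthase and cellulose synthase-like genes 2 rose and 1 fell. CESA2 (Eucgr.I00286), which makes cellulose of the primary wall, had 641, 687 and 861 CPM in C1, against 534, 626 and 688 CPM in C0 and was not called (log2 fold change 0.24 ± 0.18, adjusted p = 0.453). ATCSLD2 (Eucgr.D02228) had 50.6, 68.8 and 27.2 CPM in C1, against 20.5, 11.6 and 15.1 CPM in C0 (log2 fold change 1.62 ± 0.25, adjusted p = 7.76e-07).

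Of 15 cuticle and epidermis genes 4 rose and 1 fell. The 4 were among 10 members named from the C1 and S1 selection, in which 37.8% of all transcripts rose, and none of the 5 from the polymorphism table rose. Protodermal factor PDF1 (Eucgr.A01963), a marker of the outermost cell layer of young organs, had 215, 7.94 and 31.9 CPM in C1, against 0.587, 0.364 and 4.24 CPM in C0 (log2 fold change 5.33 ± 0.43, adjusted p = 1.45e-14). The October libraries spread widely, with Katherine highest, but each lay above the August libraries. CYP86A7 (Eucgr.D01839) had 564, 875 and 1208 CPM in C1, against 414, 637 and 528 CPM in C0 (log2 fold change 0.70 ± 0.18, adjusted p = 0.00405), and lost its call without population as a term and without any one of the populations. Of 32 lipid transfer proteins and GDSL lipases, 9 rose and 3 fell. Of these, 7 rises and all 3 falls were among the 27 members named from the C1 and S1 selection, in which 37.8% of all transcripts rose and 13.1% fell. The lipid transfer protein LP1 (Eucgr.K01282) was the most abundant, at 1694, 2603 and 5066 CPM in C1, against 532, 815 and 682 CPM in C0 (log2 fold change 2.07 ± 0.21, adjusted p = 3.63e-11). A GDSL lipase, Eucgr.E03249, had 110.0, 11.6 and 75.4 CPM in C1 and no read in any C0 library, so that it was at least 147-fold higher, taking 3 reads over the C0 group as the floor (adjusted p = 3.96e-19).

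Cell type markers were summed as well, but many of them are members of the lists above, so their levels are not separate evidence. Leaf mesophyll markers (RBCS1A, LHB1B1, LHCA1 and LHCB3; CAB1 was not identified) summed to 16723 to 27459 CPM in C1, against 54010 to 67170 CPM in C0. Epidermis markers (PDF1, KCS19, CER4 and CYP86A7) summed to 1169 to 1550 CPM in C1, against 609.7 to 877 CPM in C0. Markers of dividing cells (CYCB1;4, MCM2, HTA1 and HTB4; CDKB2;1 was not identified) summed to 144 to 398 CPM in C1, against 68.4 to 235 CPM in C0. Xylem markers (IRX3, IRX12, LAC17 and MYB83) summed to 68.2 to 199 CPM in C1, against 38.9 to 47.5 CPM in C0, with IRX3 at 1.77, 1.06 and 7.38 CPM in C1, against 12.3, 7.63 and 6.06 CPM in C0 and not called. Of the C1 sums, MYB83 made up 131, 10.1 and 122 CPM, and IRX12 was not called. The phloem marker ATPP2-A2 was represented by a pair of transcripts that summed to 41.8 to 85.2 CPM in C1, against 73.9 to 107 CPM in C0. Of these Eucgr.J02719 fell by 1.17 (adjusted p = 1.16e-05), whereas Eucgr.L00712 was higher in every C1 library than in any C0 library and was not called (0.87 ± 0.30), and AtPP2-A12 was not identified. All identified markers had reads in every C1 library, and the only one at 0 was MYB83 in C0 of Katherine. The part of shifts in cell type in the results above was not tested.

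Transcription factors of the families NAC, MYB, homeobox, ERF, WRKY, bZIP and bHLH rose in 16 and fell in 5 of 32 cases. All 16 rises were among the 29 members named from the C1 and S1 selection, in which 37.8% of all transcripts rose. ATMYB5 (Eucgr.F03176, scaffold 6:41133099-41134728), a regulator of tannins and trichomes in Arabidopsis, had 75.02, 65.1 and 68.1 CPM in C1, against 1.76, 0 and 5.45 CPM in C0 (log2 fold change 5.06 ± 0.35, adjusted p = 6.13e-17). MYB83 (Eucgr.E01031), which directs secondary wall formation in Arabidopsis, had 131, 10.1 and 122 CPM in C1, against 0, 1.45 and 7.27 CPM in C0 (log2 fold change 4.75 ± 0.36, adjusted p = 1.84e-15), with Mt Isa far below the other October libraries and a log2 fold change of 5.13 without the Mt Isa pair. EGL3 (Eucgr.D02287), a bHLH partner of MYB proteins in the flavonoid pathway, rose by 1.33, and MYB42 (Eucgr.K00153) by 1.91. ATBZIP53 (Eucgr.H04038), an activator of proline and amino acid catabolism under low energy, and anac047 (Eucgr.A02070) fell by 2.72 and 1.96. KNAT4 (Eucgr.C02727) was the most abundant, with 117, 97.9 and 131 CPM in C1, against 182, 167 and 182 CPM in C0 (log2 fold change -0.63 ± 0.17, adjusted p = 0.00547). Without population as a term, 13 of the 32 were called higher and 0 lower, and without the Katherine pair 9 and 0, so that KNAT4 was called in neither.

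Of 24 auxin and gibberellin growth genes, 7 rose and 2 fell. All of these were among the 23 members named from the C1 and S1 selection, in which 37.8% of all transcripts rose and 13.1% fell. A gibberellin-regulated family gene, Eucgr.F02616, had 3.89, 7.41 and 9.39 CPM in C1, against 83.3, 66.2 and 50.3 CPM in C0 (log2 fold change -3.25 ± 0.26, adjusted p = 1.66e-14). Another member of that family, Eucgr.G01294, had 60.5, 19.0 and 21.5 CPM in C1, against 6.45, 2.18 and 4.24 CPM in C0 (log2 fold change 2.93 ± 0.31, adjusted p = 1.06e-10), so the family went in both directions. The most abundant member, Eucgr.B03715, had 141, 188 and 114 CPM in C1, against 171, 139.6 and 136 CPM in C0 and was not called.

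Among 14 genes listed under galactinol, raffinose and trehalose synthesis, 5 fell and 1 rose. All 14 were named from the C1 and S1 selection, in which 13.1% of all transcripts fell. The list was drawn from product names, which do not settle whether a member makes or breaks down these sugars. Galactinol synthase AtGolS1 (Eucgr.K03563, scaffold 11:44777388-44779306), which makes the galactose donor of raffinose sugars, had 368, 19.0 and 581 CPM in C1, against 2537, 2646 and 2042 CPM in C0 (log2 fold change -3.48 ± 0.40, adjusted p = 6.66e-10). Mt Isa was far below the other October libraries and the log2 fold change was -2.31 without the Mt Isa pair. The call was lost without population as a term, in DESeq2, in the quasi-likelihood method of edgeR 4 and without the Katherine pair. AtGolS4 (Eucgr.B03987), stachyose synthase AtSTS (Eucgr.H00997) and AtSIP2 (Eucgr.E04226) fell by 2.87, 2.36 and 3.33. AtSTS lost its call without the Mt Isa pair, at a log2 fold change of -1.66. The AtGolS2 homolog Eucgr.L00248 was the member that rose, at 7.08, 15.3 and 13.7 CPM in C1, against 0.587, 0.364 and 0.606 CPM in C0. Dark, sugar-starvation and dormancy-associated genes fell in 3 of 6 cases, among them Eucgr.H04545 with 8.49, 4.23 and 5.03 CPM in C1, against 37.6, 23.6 and 23.6 CPM in C0 (log2 fold change -2.25 ± 0.29, adjusted p = 1.65e-08), and DIN10 (Eucgr.C04266) rose by 0.99. The 3 falls of this list were among the 4 members named from the C1 and S1 selection. Of 5 clock and light signalling genes 3 fell, and all 5 were named from the polymorphism table, in which 27.1% of all transcripts fell. The pseudo-response regulator APRR5 (Eucgr.A01405), a clock component that peaks in the afternoon in Arabidopsis, had 47.4, 57.7 and 53.6 CPM in C1, against 193, 206 and 168 CPM in C0 (log2 fold change -1.84 ± 0.18, adjusted p = 6.31e-12). ATGRP7 (Eucgr.E01060), a clock-regulated RNA-binding protein, had 372, 344 and 346 CPM in C1, against 1021, 518 and 682 CPM in C0 (log2 fold change -1.01 ± 0.18, adjusted p = 2.41e-05), a call lost without the Katherine pair, and HY5 (Eucgr.C02802) was not called (0.15 ± 0.27). The hour of sampling within the morning is not given in the sources used here.

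Of 54 heat shock proteins and chaperones, 21 rose and 6 fell (median 0.71). Of the 40 members named from the C1 and S1 selection 18 rose, against 37.8% of all transcripts so named, whereas 3 rose and 3 fell of the 14 named from the polymorphism table (median 0.18). HSP70 (Eucgr.J00025), the most abundant, had 3291, 3230.2 and 3732 CPM in C1, against 2155, 3106 and 2471 CPM in C0 and was not called (log2 fold change 0.42 ± 0.19, adjusted p = 0.154). The small heat shock protein HSP17.6II (Eucgr.C03071) had 126, 19.6 and 46.9 CPM in C1, against 2.35, 3.999 and 6.67 CPM in C0 (log2 fold change 3.57 ± 0.33, adjusted p = 1.1e-12). A DnaJ-domain gene, Eucgr.G02581, had 3.18, 6.35 and 5.37 CPM in C1, against 89.2, 132 and 93.9 CPM in C0 (log2 fold change -4.39 ± 0.24, adjusted p = 1.49e-20). Mt Isa was the lowest October library for 37 of the 54. Of the 54, 9 were called higher without population as a term, 19 without the Mt Isa pair, 7 without the Katherine pair and 10 in DESeq2. Of the 8 HSP18.2 homologs 7 rose, and all 8 lie close together on scaffold 10, so their reads may be shared.

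Of 6 late embryogenesis abundant proteins and dehydrins 1 rose, Eucgr.A00854 with 24.8, 31.7 and 26.2 CPM in C1, against 5.87, 7.27 and 8.48 CPM in C0 (log2 fold change 1.94 ± 0.28, adjusted p = 3.43e-07), and Eucgr.C00653, the most abundant, had 54.9, 70.9 and 76.8 CPM in C1, against 76.9, 68.0 and 78.8 CPM in C0. Of 9 genes for abscisic acid synthesis and signalling 2 rose and 1 fell. The phosphatases ABI2 (Eucgr.J02003) and HAB1 (Eucgr.C03407), which hold abscisic acid signalling down, had 23.0, 38.1 and 49.6 CPM in C1, against 12.9, 21.4 and 22.4 CPM in C0 (log2 fold change 0.94 ± 0.23, adjusted p = 0.00142) and 111, 93.6 and 126 CPM in C1, against 107, 127 and 132 CPM in C0 (not called). ABI2 lost its call without population as a term, in DESeq2 and without any one of the populations. NCED3 (Eucgr.D00291), which limits abscisic acid synthesis, was not called (0.18 ± 0.30). Of 13 aquaporins 3 rose, SIP1;1 (CUFF.1060) among them with 83.9, 58.2 and 58.3 CPM in C1, against 21.7, 16.4 and 25.4 CPM in C0 (log2 fold change 1.66 ± 0.21, adjusted p = 9.46e-09), and GAMMA-TIP (Eucgr.K02438), the most abundant, had 1473, 1199 and 1025 CPM in C1, against 1439, 1172 and 1108 CPM in C0. Of 14 chitinases and pathogenesis-related proteins 4 rose and 2 fell, with a thaumatin-like gene, Eucgr.B00944, at 379, 177 and 113 CPM in C1, against 56.3, 24.7 and 42.4 CPM in C0 (log2 fold change 2.36 ± 0.21, adjusted p = 3.94e-13). All 14 were named from the C1 and S1 selection, in which 37.8% of all transcripts rose and 13.1% fell. So were 5 of the 6 late embryogenesis abundant genes, with 1 rise, and 8 of the 9 abscisic acid genes, with 2 rises and 1 fall. Of the 13 aquaporins 8 were named from it, with 1 rise. The other 5, with 2 rises, came from the polymorphism table, in which 7.99% of all transcripts rose.

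Among 7 antioxidant genes 3 fell and 1 rose. Of the falls 2 were among the 4 members named from the polymorphism table, in which 27.1% of all transcripts fell. The other fall and the rise were among the 3 members from the C1 and S1 selection, in which 13.1% fell and 37.8% rose. Iron superoxide dismutase FSD1 (Eucgr.K00110, scaffold 11:1694709-1696862), a chloroplast enzyme, had 5.66, 10.6 and 4.69 CPM in C1, against 87.4, 137 and 73.9 CPM in C0 (log2 fold change -3.85 ± 0.23, adjusted p = 2.96e-19). The copper/zinc enzymes CSD2 (Eucgr.B03930) and CSD3 (Eucgr.A02107) fell by 0.86 and 0.79, and the ascorbate peroxidase APX2 (Eucgr.B02456) had 844, 657 and 841 CPM in C1, against 485, 616 and 621 CPM in C0 and was not called. By comparison, none of 22 cytosolic ribosomal protein genes was called in either direction by edgeR with or without population as a term or by DESeq2, and 2, 1 and 0 of the 22 had an unadjusted p under 0.05 in these fits. Their log2 fold changes lay between -0.35 and 0.16, with a median of -0.16 that became 0.15 with library totals alone. The most abundant, the L7A gene Eucgr.B00159, had 318, 437 and 277 CPM in C1, against 379.6, 442 and 324 CPM in C0.

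Further genes with large rises lay outside these lists. A 2-oxoglutarate-dependent oxygenase, Eucgr.A00518, had 36.1, 40.2 and 37.2 CPM in C1, against 0.587, 0.727 and 1.21 CPM in C0 (log2 fold change 5.45 ± 0.40, adjusted p = 5.5e-16). A Rossmann-fold protein, Eucgr.K02657, had 413, 89.4 and 441 CPM in C1, against 0, 0.364 and 27.3 CPM in C0 (log2 fold change 5.44 ± 0.34, adjusted p = 2.26e-18), and cytochrome b5 ATB5-B (Eucgr.F00125), an electron donor to oxygenases of the endoplasmic reticulum, had 196, 28.0 and 174 CPM in C1, against 3.52, 1.09 and 4.85 CPM in C0 (log2 fold change 5.31 ± 0.28, adjusted p = 5.6e-21). For both, as for PAL2, DFR and scpl6, Mt Isa had the lowest October level, and the log2 fold changes without the Mt Isa pair were 5.19 and 5.43. Mt Isa was also the lowest October library for SK1 (Eucgr.F02664), UGT78D2 (Eucgr.C01021), RHM1 (Eucgr.K01196), PDF1 (Eucgr.A01963) and Eucgr.L02741, with 4.56, 4.99, 3.17, 5.43 and 5.53 without the Mt Isa pair. A major facilitator transporter, Eucgr.B02026, had 46.4, 84.6 and 47.3 CPM in C1, against 1.76, 1.82 and 1.21 CPM in C0 (log2 fold change 5.21 ± 0.33, adjusted p = 2.17e-18). Among transcripts without a product name that averaged 20 CPM or more in C1 with reads in every C1 library, the largest rises were Eucgr.F02915, at 13.4, 20.1 and 35.9 CPM in C1, against 0, 0.727 and 2.42 CPM in C0, scaffold 4:33735422-33737281, with a log2 fold change of 4.15 ± 0.44, and scaffold 4:1071589-1072030, with 3.95 ± 0.42.

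Among the largest falls, the ferredoxin ATFD3 (Eucgr.J00493, scaffold 10:5306029-5307556), an electron carrier of non-green plastids, had no read in any C1 library, against 37.0, 16.7 and 8.48 CPM in C0. With a floor of 3 reads over the C1 group it was at least 51.7-fold lower (adjusted p = 7.31e-13). Hemoglobin GLB1 (Eucgr.I01237, scaffold 9:23216458-23218186), a nitric oxide scavenger that is known for induction by low oxygen and by nitrate, had 0.354, 0 and 0.671 CPM in C1, against 96.8, 79.3 and 55.1 CPM in C0. The C1 values rest on 3 reads in all, and the ratio of C0 over C1 was 199 (95% interval 67.8 to 970.3, counting error only; adjusted p = 2.5e-21). A glycine-rich protein gene, Eucgr.D01723, had 1.77, 2.12 and 1.01 CPM in C1, against 83.3, 115 and 41.8 CPM in C0 (log2 fold change -5.54 ± 0.30, adjusted p = 9.92e-21). MEE14 (Eucgr.I01209) had 4.95, 7.94 and 4.36 CPM in C1, against 91.5, 50.5 and 61.8 CPM in C0 (log2 fold change -3.59 ± 0.26, adjusted p = 4.35e-16). Of the transcripts without a name, scaffold 8:36224649-36227231 had 20.5, 2.12 and 10.4 CPM in C1, against 848, 490.4 and 177 CPM in C0 (log2 fold change -5.36 ± 0.28, adjusted p = 3.72e-21), and scaffold 4:34624989-34625700 and 4:31248299-31249406 had log2 fold changes of -5.34 ± 0.36 and -5.04 ± 0.37. In all, 46 transcripts called higher had no C0 read and 8 called lower had no C1 read.

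Calls of 1 direction sometimes lay side by side on a scaffold, which was examined after the values were seen. Along the tested transcripts, 14 runs of 5 or more neighbours were called in the same direction, 8 higher and 6 lower. A run of 6 rose at scaffold 6:49774902-49847923, which holds the laccases Eucgr.F04158, Eucgr.F04159, Eucgr.F04160 and Eucgr.F04162 (median log2 fold change 3.08), and 6 at scaffold 9:21404625-21468171, which holds scpl18 and SCPL7 (median 4.32). A run of 5 rose at scaffold 1:17167494-17357495, all of them terpene synthases (median 1.97), and 5 at scaffold 8:66716835-66743876 with the caffeoyl-CoA O-methyltransferases Eucgr.H04646 and Eucgr.H04648 (median 2.26). Among the falls, runs of 6 lay around FSD1 at scaffold 11:1671738-1696862 (median -2.77), around LHB1B1 at scaffold 4:5281980-5304116 (median -2.31) and around Eucgr.D01723 at scaffold 4:31151292-31254825 (median -3.32). Several predicted transcripts of a run can be pieces or copies of the same gene, and 10.1% of the tested transcripts overlap another.

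Over the 1751 transcripts called higher, the median log2 ratio of CPM (with 1 added) was 1.52 in Katherine, 1.43 in Mt Isa and 1.20 in Petford. Over the 2236 called lower it was -1.44, -1.40 and -1.03, so Petford had the smallest median change both ways. Since these transcripts were chosen by the same contrast, these are descriptions. Petford was also the lowest October library for 806 of the 1751 transcripts called higher, and it was the highest October library for all 13 carbon fixation and 14 of 15 photosystem genes.

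Whether watered seedlings changed differently from stressed ones was tested as the difference of changes, C1 minus C0 against S1 minus S0, over all 12 libraries. It was called for 6785 of 41513 transcripts (16.3%), with 3929 positive (9.46%), where the watered change was the more positive, and 2856 negative (6.88%). By themselves, S1 and S0 differed for 11596 of 38616 transcripts (30.0%). Their libraries held 2228850 to 6614000 counts in S1 and 1650330 to 5866208 in S0, from bulks of 10 seedlings. Depth, bulk size and the pooling of the spread thus differed from those of C1 against C0, and the shares called are not on equal terms. The watered and the stressed changes share no library. Of the transcripts tested in both, 1637 rose in C1, and of these 370 (22.6%) also rose and 595 (36.3%) fell in S1, where 15.8% rose and 17.2% fell over all 32824 transcripts. The 370 are 7.13% of the transcripts that rose in S1 and the 595 are 10.5% of those that fell. Of the 2234 that fell in C1, 1518 (67.9%, and 26.8% of those that fell in S1) also fell and 188 (8.42%, and 3.62% of those that rose) rose in S1. The difference itself was called for 1098 of the 1637 rises (67.1%) and for 939 of the 2234 falls (42.0%).

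**Figure D5:**
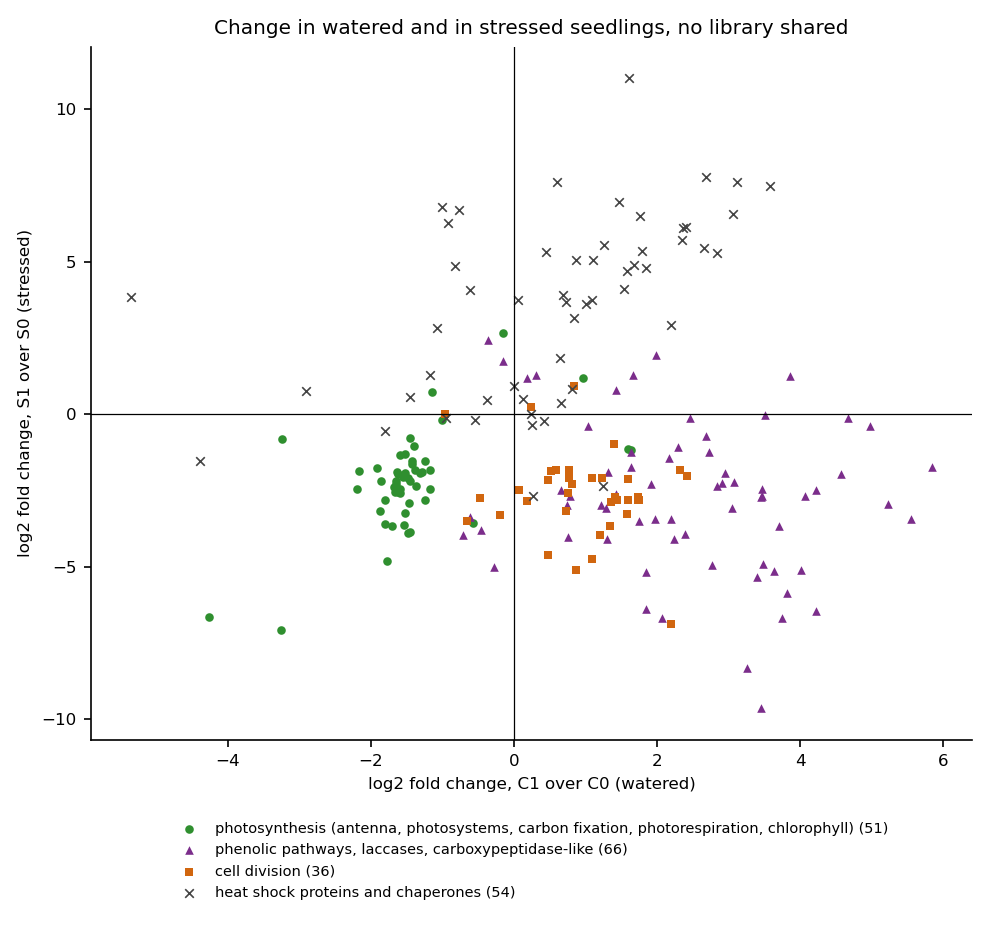
Log2 fold change of S1 over S0 in stressed seedlings (vertical axis) against that of C1 over C0 in watered seedlings (horizontal axis) for 4 groups of listed genes, 1 point a gene. Of 51 photosynthesis genes (green), 46 lie below 0 on both axes, whereas 54 of 66 genes of phenolic pathways, laccases and carboxypeptidase-like proteins (purple) lie above 0 in watered and below 0 in stressed seedlings, as do 30 of 36 cell division genes (orange), many of which the study selected for a difference between C1 and S1.

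Photosynthesis genes also fell in the stressed seedlings, with 6 of 6 antenna, 14 of 15 photosystem, 12 of 13 carbon fixation and 6 of 8 photorespiration genes lower in S1 than in S0. The list medians in S1 over S0 were -2.44 for the antenna, -1.96 for the photosystems, -2.44 for carbon fixation and -1.58 for photorespiration. RBCS1A had a log2 fold change of -3.68 in S1 over S0, and its difference of changes was 1.99 ± 0.28. For RCA the change was -2.44 in S1 over S0, with a difference of 0.26 ± 0.27, and for the oxidase Eucgr.F01413 -1.85, with a difference of -0.29 ± 0.25. The difference was called positive for 4 of 6 antenna, 5 of 15 photosystem, 6 of 13 carbon fixation and 3 of 8 photorespiration genes, and negative for 0, 1, 1 and 2 of them.

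Of the flavonoid genes 9 of 13 fell in S1 against S0, as did 4 of 7 shikimate genes, 11 of 15 laccases and 16 of 22 carboxypeptidase-like genes. The flavonoid list had a median of -1.97 in S1 over S0, the shikimate list -2.67, the laccases -3.07 and the carboxypeptidase-like genes -3.91, and the difference was called positive for 12 of 13, 7 of 7, 13 of 15 and 22 of 22 members (12, 7, 13 and 21 without Mt Isa). Most of these were selected by the study for a difference between C1 and S1. CHS (Eucgr.H00087) had -3.08 in S1 over S0 and a difference of 4.39 ± 0.26, and DHS2 had -2.67 and 6.76 ± 0.28. SCPL13 had -6.45 and 10.68 ± 0.36. ATC4H was an exception, with 1.94 in S1 over S0 and a difference of 0.07 ± 0.25, and TT7 (Eucgr.B00582) rose in both. The members named by the polymorphism table were not chosen by that selection, and for them the difference was called positive for 1 of 1 in the shikimate list, 0 of 1 in the flavonoid list, 0 of 2 in the glycosyltransferase list and 0 of 4 in the phenylpropanoid list, where it was negative for 2. For IRX12, the laccase named from that table, it was negative, and IRX12 rose in S1 against S0. The heat shock list had a median of 3.99 in S1 over S0, where 43 of 54 rose, and the difference was negative for 42, or for 37 without Mt Isa. For the 14 heat shock genes named from the polymorphism table, 6 rose in S1 over S0 and the difference was negative for 4.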

How the data were processed

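Leaf RNA was sequenced as 65-base single-end Illumina reads from 12 bulks. The authors mapped the reads to the E. grandis draft genome with Bowtie and TopHat (introns up to 5000 bases), predicted transcripts with Cufflinks from the pooled reads, and counted reads per transcript with BEDTools. Not given in the sources used here are tool versions, the genome release, strand use and how multiply matching reads were handled. The deposited table holds raw counts, with 1 column per library and no gene names. Names were taken from the study's supplementary tables. By coordinates 1708 transcripts were named, with products from Arabidopsis matches with E values up to 1e-05. By the position of a polymorphism within a transcript 668 were named, and for these no limit was set on the E value. No value was taken from the supplementary tables.

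Identical rows and transcripts sharing scaffold and start were dropped, and 34617 transcripts with at least 10 reads over the 6 libraries were tested. The main test was edgeR 4.0.16 (R 4.3.3): TMM factors, quasi-likelihood F test, population and group as terms, two-sided, Benjamini-Hochberg adjustment over all transcripts, called under 0.01. This differs from the authors' exact test without a block, which was run as an alternative, as was DESeq2 1.42.0. The population term was kept because the same seedlings were sampled in both months, and deviations from the group means correlated by 0.234 to 0.263 within a population and by -0.174 to -0.0837 between populations. S1 against S0 and the difference of changes were fitted likewise; there the spread was pooled wholly over transcripts, so their p-values rest on that pooled spread and mainly effects are printed. TMM factors were 1.05 to 1.16 in C1 and 0.88 to 0.91 in C0, and the common biological coefficient of variation was 0.167. On simulated counts the main fit recovered 60 of 100 transcripts changed 4-fold and 16 of 100 changed 2-fold, and called 1 unchanged transcript. The fit of the difference of changes recovered 20 and 3 of 100. A transcript that was not called may therefore have changed.

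The 31 lists were found by words in the product names, 1 transcript a gene. Named were, in each list, the most abundant member and the called member with the largest change at 20 CPM or more in the higher group and in the same direction in all populations; the 8 largest rises and falls with a product name and 3 each without; the 10 most abundant transcripts; and the 3 largest differences of changes each way. Members, lists and tests were chosen with earlier results of these data known. Sequences are not shown. Intervals cover counting error only.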

Additional observations from a re-analysis of the deposited data

Results flagged for a closer look

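These 6 named genes are listed because the test of the difference between the watered change (C1 minus C0) and the stressed change (S1 minus S0) gave their largest values in each direction. CPM here are scaled over all 12 libraries. In 3 of them the difference was negative. The protease gene FTSH6 (Eucgr.J01348) had a difference of -11.92 ± 1.70: it had 0.676, 1.46 and 1.90 CPM in C1 and 1.07, 0.675 and 0 CPM in C0, but 377, 185 and 389 CPM in S1 and 0, 0 and 0 CPM in S0. A glyoxal oxidase-related gene, Eucgr.F01844, had a difference of -12.30 ± 2.31, with 22.3, 29.2 and 14.7 CPM in S1, no read in S0 or C1 and 3 reads in C0. An Integrase-type DNA-binding gene, Eucgr.B02161, had a difference of -11.34 ± 3.23, with 23.6, 19.4 and 39.6 CPM in S1, no read in S0 or C1 and 1 read in C0. Because S0 held no read of these genes, the fitted differences depend on the prior count and are not bounds.

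In the other 3 the difference was positive. Expansin EXPA1 (Eucgr.I01954) had a difference of 10.69 ± 0.45, with 179, 212 and 267 CPM in C1 and 204, 203 and 188 CPM in C0, but 0, 0.405 and 0 CPM in S1 against 176, 189 and 172 CPM in S0. It was not called in C1 against C0, and S1 held 1 read in all. The LAC14 laccases rose in C1 against C0 and had at most 3 reads in all in S1, so these fitted differences depend on the prior count too. Eucgr.F04160 had a difference of 11.58 ± 0.40, with 559, 878 and 563 CPM in C1, 55.2, 76.2 and 71.4 CPM in C0, 0.216, 0.810 and 0 CPM in S1 and 83.6, 104 and 77.6 CPM in S0. Eucgr.F02646 had a difference of 12.86 ± 0.53, with 158, 308 and 246 CPM in C1, 14.5, 20.9 and 29.3 CPM in C0, no read in S1 and 28.0, 41.7 and 20.9 CPM in S0. All 6 genes were named from the table that the study selected for a difference between C1 and S1, which these contrasts share, and no cause was tested.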

How the results depend on the processing

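The counts of transcripts called in C1 against C0 (1751 higher, 2236 lower) were 779 and 1344 without population as a term (no replicate block), 807 and 1311 in DESeq2, 1010 and 1476 in the quasi-likelihood method of edgeR 4, an alternative chosen after the data were seen, and 3610 and 1596 with library totals alone. At an adjusted p under 0.05 they were 2667 higher and 2929 lower. Leaving out a pair gave 490 to 1695 higher and 779 to 2458 lower, lowest without Katherine, where the spread was pooled less over transcripts than without the others. The edgeR exact test, other size factors, other count filters, shared-start transcripts kept, overlapping transcripts left out (chosen after the data were seen) and S0 in place of C0 stayed within 1.5 times of the main counts. The differences of changes called (3929 positive, 2856 negative) were 2718 and 1672 without the block, and leaving out a population gave 2862 to 3460 positive and 1556 to 1850 negative. Of the 83 named genes, 77 kept direction and side of the threshold in DESeq2 and 6 lost the call; 8 lost it without the block, 12 without Katherine, 5 without Mt Isa and 2 without Petford. Direction turned only for genes that were not called: with library totals alone for Eucgr.C00653 (0.15), HAB1 (0.16), GAMMA-TIP (0.29), Eucgr.B00159 (0.14), Eucgr.B01910 (0.17) and Eucgr.B03715 (0.28); and on leaving out a population for Eucgr.C00653 (-0.27 to 0.01), GAMMA-TIP (-0.05 to 0.01), Eucgr.B03715 (-0.28 to 0.10) and EXPA1 (-0.11 to 0.27). The medians of the ribosomal and late embryogenesis abundant lists changed sign with library totals alone, to 0.15 and 0.02. The causes of these changes were not tested.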
